A study of Homo sapiens with 2 samples.

Results

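Topologically associating domains (TADs), blocks of chromatin that fold mostly onto themselves, were compared on chromosomes 5, 10, 13, 14, 15, 18, 21 and 22 of HepG2 cells, a line grown from a human liver tumour. These 8 chromosomes were chosen by their number of listed domains, each having at least 12 fewer in fatty acid-treated cells than in mock cells. They held 615 of the 2679 domains of the mock list and 424 of the 2524 domains of the list of treated cells, 1039 of 5203 in all. The treated cells, named PA+OA in the labels, received 120 µM palmitic acid, a saturated fatty acid, and 240 µM oleic acid, a monounsaturated one, for 48 h in medium with 1% fatty acid-free BSA. The mock cells received DMSO diluted 1 to 1000, and the labels leave unclear whether their medium also held BSA. Each group was 1 Hi-C library, a sequencing library of DNA ends that lay close together in the nucleus, so no difference below has a replicate check or a test, and read depth is unknown. The lists hold positions alone, so the identity of the cell line could not be checked against marker genes. HepG2 carries extra copies of several chromosomes, and copy number was not analysed here. A bulk library also cannot tell a boundary that weakened in every cell from one that disappeared in some.

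Domain boundaries are often held by the DNA-binding protein CTCF and the ring-shaped cohesin complex, which extrudes loops of chromatin until it meets bound CTCF. Active promoters, many of them rich in CpG dinucleotides, are also common at boundaries, and genes within a domain tend to share the reach of the same enhancers. The human chromosomes 13, 14, 15, 21 and 22 are acrocentric: their short arms carry ribosomal RNA genes and satellite repeats and are hardly covered by the reference sequence.

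A mock boundary was called lost where the PA+OA list had no boundary within 1 bin of 40 kb, and retained otherwise. To show what lay at such places, promoters of protein-coding genes are given for chromosomes 15, 18 and 22, from 250 bases before to 50 bases after the start of transcription, as held by RefSeq for GRCh38. For each chromosome, the first is the promoter nearest to a lost boundary inside the PA+OA domain that held the most lost boundaries. The second is the promoter nearest to a retained boundary other than the ends of the lists. Capitals mark CpG dinucleotides, and the sequences read 5′ to 3′ on the gene's strand.
TCF12, lost, chr15:56917840-56918139, plus strand: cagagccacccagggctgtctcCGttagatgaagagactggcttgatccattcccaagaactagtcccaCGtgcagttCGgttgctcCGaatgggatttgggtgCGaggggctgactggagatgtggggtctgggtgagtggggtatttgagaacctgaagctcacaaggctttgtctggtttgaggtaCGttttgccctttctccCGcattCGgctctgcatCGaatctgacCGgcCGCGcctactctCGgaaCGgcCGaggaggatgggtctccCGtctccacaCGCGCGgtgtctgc
FBXL22, retained, chr15:63597137-63597436, plus strand: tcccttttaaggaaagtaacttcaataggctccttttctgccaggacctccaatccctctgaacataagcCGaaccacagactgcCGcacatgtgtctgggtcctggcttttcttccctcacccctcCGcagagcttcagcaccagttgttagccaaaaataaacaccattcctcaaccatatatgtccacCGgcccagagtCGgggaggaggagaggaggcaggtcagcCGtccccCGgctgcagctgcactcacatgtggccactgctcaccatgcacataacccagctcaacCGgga
PSMA8, lost, chr18:26133619-26133918, plus strand: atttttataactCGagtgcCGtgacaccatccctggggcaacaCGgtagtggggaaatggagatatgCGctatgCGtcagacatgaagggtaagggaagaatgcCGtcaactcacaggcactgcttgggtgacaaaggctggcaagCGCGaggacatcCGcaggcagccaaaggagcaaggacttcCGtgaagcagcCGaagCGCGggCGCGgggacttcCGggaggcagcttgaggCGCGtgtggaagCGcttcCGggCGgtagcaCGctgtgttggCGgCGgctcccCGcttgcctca
PTPRM, retained, chr18:7567066-7567365, plus strand: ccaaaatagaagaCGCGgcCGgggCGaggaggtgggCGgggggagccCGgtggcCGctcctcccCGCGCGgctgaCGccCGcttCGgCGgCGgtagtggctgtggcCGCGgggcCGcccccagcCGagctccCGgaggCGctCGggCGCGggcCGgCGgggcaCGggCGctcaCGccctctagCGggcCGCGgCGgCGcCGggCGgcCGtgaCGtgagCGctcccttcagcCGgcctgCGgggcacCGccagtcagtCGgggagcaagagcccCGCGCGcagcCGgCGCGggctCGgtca
ATF4, lost, chr22:39520309-39520608, plus strand: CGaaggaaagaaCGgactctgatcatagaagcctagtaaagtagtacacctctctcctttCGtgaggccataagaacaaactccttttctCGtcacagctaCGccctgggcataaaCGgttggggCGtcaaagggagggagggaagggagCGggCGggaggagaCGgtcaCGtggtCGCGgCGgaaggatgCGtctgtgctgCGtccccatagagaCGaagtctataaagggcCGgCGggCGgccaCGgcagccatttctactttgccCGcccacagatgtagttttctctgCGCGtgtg
ATP6V1E1, retained, chr22:17628773-17629072, minus strand: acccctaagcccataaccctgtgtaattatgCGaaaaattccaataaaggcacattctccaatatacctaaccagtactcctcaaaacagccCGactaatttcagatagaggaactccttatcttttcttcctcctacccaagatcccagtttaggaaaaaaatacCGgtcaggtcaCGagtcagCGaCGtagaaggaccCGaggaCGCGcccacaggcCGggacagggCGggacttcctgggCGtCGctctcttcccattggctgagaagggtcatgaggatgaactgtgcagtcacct

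The promoter of ATF4, which encodes a transcription factor of the integrated stress response, held 24 CpG. Its transcription start lay 0.559 kb from the lost boundary at 39520000. The promoter of TCF12, which encodes a basic helix-loop-helix transcription factor, held 19, with its transcription start 1.91 kb from the lost boundary at 56920000. That of PSMA8, a proteasome subunit gene, held 25, with its transcription start 13.9 kb from its lost boundary. Among the retained examples, PTPRM, which encodes a receptor tyrosine phosphatase, had 50 CpG, ATP6V1E1, a proton pump subunit gene, had 13, and FBXL22, an F-box protein gene, had 8. The transcription starts of these genes lay 7.32, 28.8 and 2.61 kb from their retained boundaries. With 3 of each kind at unlike distances, the lost examples did not stand apart from the retained ones in CpG number. Distances below 40 kb are finer than the lists resolve.

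The same was seen over all promoters near boundaries of these chromosomes. Of 147 promoters whose transcription start lay within 40 kb of a lost boundary, 118 held at least 10 CpG (80.3%, Wilson 95% interval 73.1 to 85.9%, which like all intervals here covers counting error only). Near retained boundaries it was 182 of 222 (82.0%, 76.4 to 86.5%). All 15842 protein-coding promoters with a sequence gave 72.9%. A relaxed core of the motif of CTCF, spelled CCA, any 2 bases, AG, any 2 bases, GGC and searched on both strands, was in 1 promoter near a lost boundary (0.680%), that of the splicing factor gene RBM22 on chromosome 5. It was in 5 near retained boundaries (2.25%), those of HIF1AN, PCBD1 and PGBD3 on chromosome 10, SNX18 on chromosome 5 and GNG2 on chromosome 14. Of all promoters, 2.72% held it, and the intervals near lost boundaries (0.120 to 3.75%) and near retained ones (0.966 to 5.16%) overlapped.

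The rule selects the chromosomes by domain number, so the numbers that follow describe the choice. Chromosome 18 had 80 mock and 40 PA+OA domains, chromosome 15 had 66 and 32, and chromosome 5 had 150 and 123. Chromosome 22 had 37 and 12, chromosome 14 had 67 and 47, chromosome 10 had 172 and 153, and chromosome 13 had 19 and 5. Chromosome 21, the last to meet the rule, had 24 and 12, and chromosome 4, the nearest outside it, had 164 and 156. The ratio of mock to PA+OA domains ran from 1.12 on chromosome 10 and 1.22 on chromosome 5 to 3.08 on chromosome 22 and 3.80 on chromosome 13. An equal cut in number is a larger fraction of the domains where the mock list has few of them than where it has many. The other 15 chromosomes had 2064 mock and 2100 PA+OA domains together.

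**Figure D1:**
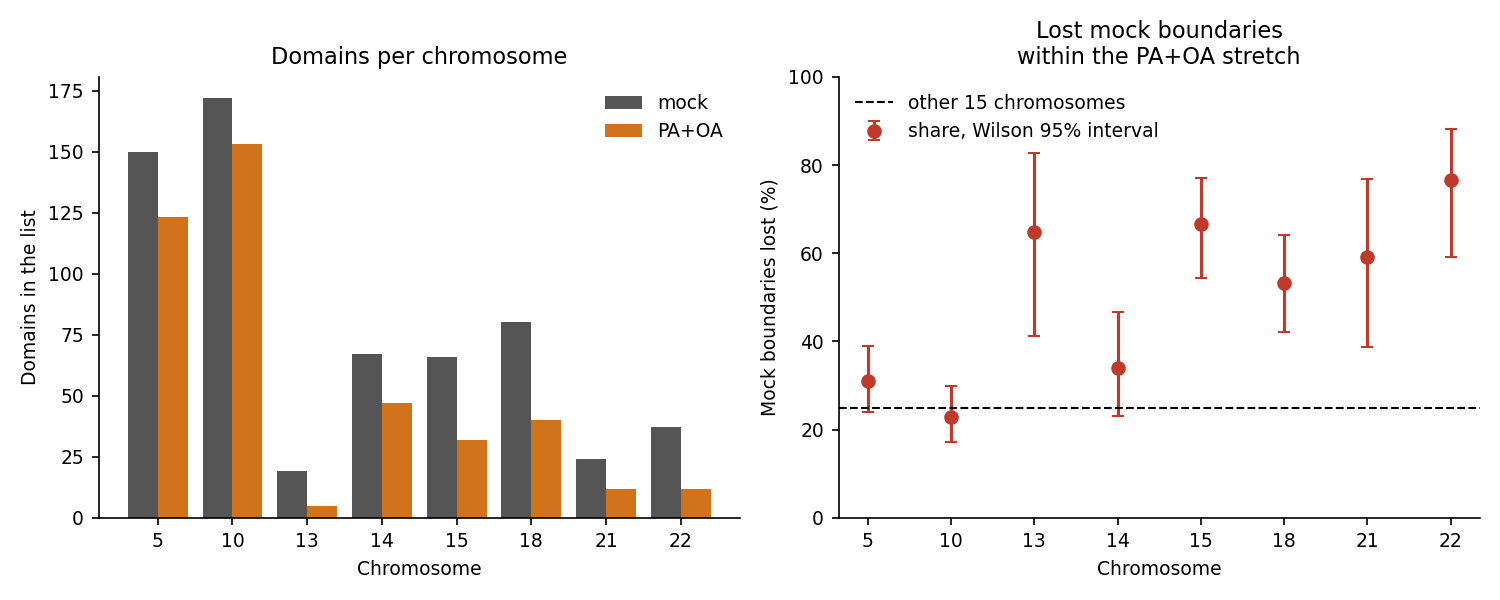
Left, bars give the number of listed domains on each of the 8 chromosomes in the mock and the PA+OA library, 1 library each. Right, points give the share of mock boundaries lost within the stretch that the PA+OA list covers, in percent with Wilson 95% intervals, and the dashed line is the share on the other 15 chromosomes (24.9%). Chromosome 10 lies just below that line, at 22.9%, and chromosome 22 highest, at 76.7%.

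A small part of the difference in number came from a shorter covered stretch on 4 of the 8 chromosomes. Within the stretch both lists cover, PA+OA minus mock domains came to -179 in place of -191. The last PA+OA domain of chromosome 22 ended at 43960000 and the last mock domain at 50240000, so 6.28 Mb with 6 mock domains had no counterpart. On chromosome 14 it ended 2.44 Mb earlier, on chromosome 13 1.76 Mb and on chromosome 18 0.32 Mb, which set aside 3, 3 and 1 mock domains. Chromosomes 10, 15 and 21 were covered to the same position in both lists, and chromosome 5 to 0.04 Mb further for PA+OA. The mock list covered 811.88 Mb of the 8 chromosomes, the PA+OA list 801.12 Mb. Beyond the PA+OA end lay the middles of 70 protein-coding genes on chromosome 22, 30 on chromosome 13, 27 on chromosome 14 and 10 on chromosome 18. Of these, 23, 11, 0 and 8 lay beyond the mock end too. Some genes of lipid metabolism and coagulation were among them. PPARA, which encodes the nuclear receptor that fatty acids activate, and CPT1B, the gene of the muscle form of carnitine palmitoyltransferase 1, lay beyond the PA+OA end of chromosome 22, and CPT1B beyond that of the mock list too. The adjacent coagulation factor genes F7 and F10 and their relative PROZ lay beyond the PA+OA end of chromosome 13, in a mock domain of 1680 kb.

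By their mean, domains were longer in the PA+OA list on all 8 chromosomes, and by their median on all but chromosomes 15 and 22. Mean size over the 8 chromosomes was 1320 kb for mock and 1889 kb for PA+OA, and on the other 15 it was 1068 and 1050 kb. Mean size went from 776 to 872 kb on chromosome 10, from 996 to 1984 kb on chromosome 18, from 1535 to 3165 kb on chromosome 15 and from 1358 to 3663 kb on chromosome 22. The changes on chromosomes 10, 15 and 18 follow the counts, since nearly the same length was divided. On chromosome 22 the PA+OA list covered 6.28 Mb less, and the ratio of means was 2.70 against 3.08 for the counts. The median over the 8 chromosomes was 680 kb (95% interval from binomial ranks 600 to 760 kb) for mock and 740 kb (640 to 880 kb) for PA+OA domains, intervals that overlap. On chromosome 15 the median was 1040 kb (600 to 1280 kb) against 820 kb (320 to 2480 kb), and on chromosome 22 it was 880 kb (520 to 1480 kb) against 300 kb (160 to 3200 kb). On these chromosomes the PA+OA lists held a few very long domains and, beside them, short ones. Without entries of zero length, of which there were 24 and 14, the chromosome 15 medians were 1040 and 1520 kb, so their order turned.

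**Figure D2:**
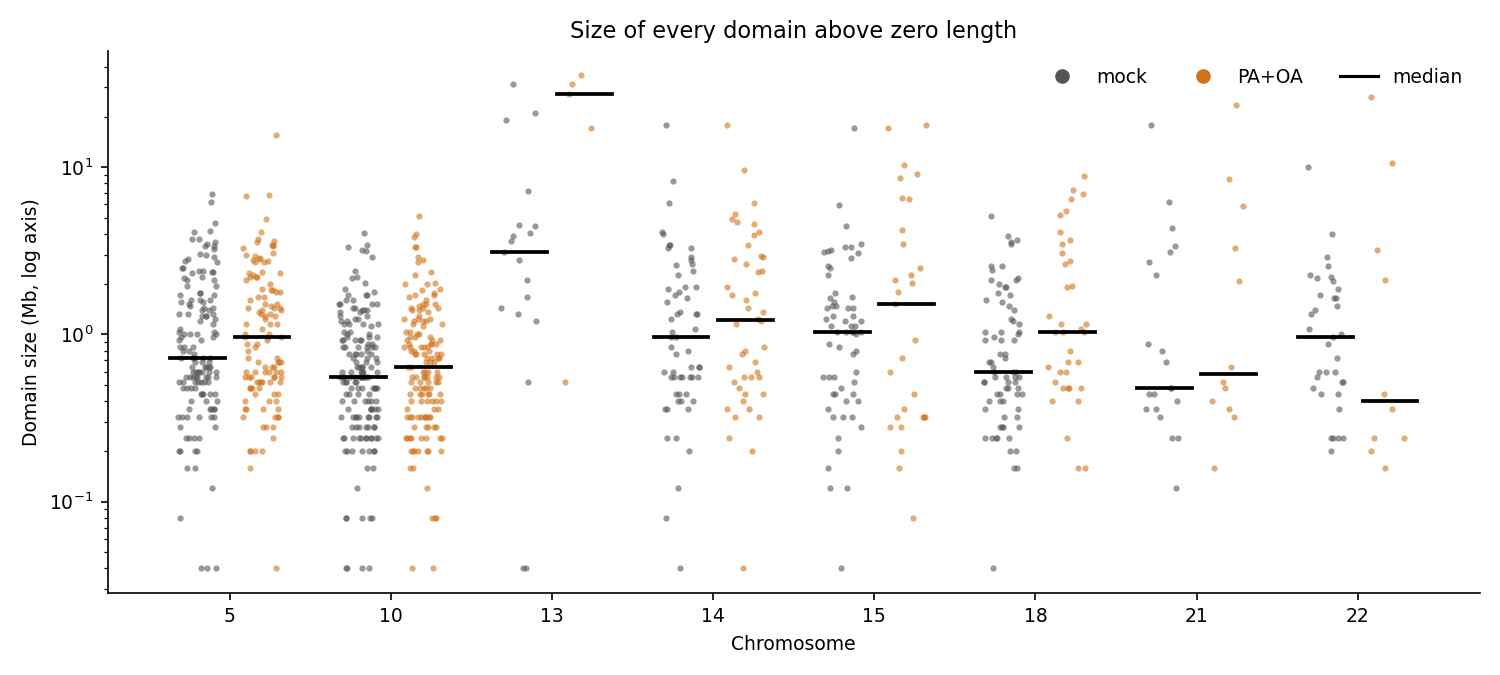
Every domain above zero length is a point at its size in Mb (log axis), by chromosome, mock in grey and PA+OA in orange, with the median as a black line. On chromosome 22 the PA+OA list holds a single domain of 26.36 Mb and mostly short ones beside it, and on chromosome 13 only 5 domains remain, of up to 35.4 Mb.

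Domains longer than 3 Mb were nearly as many in both lists over the 8 chromosomes, 59 and 58. By chromosome this differed, with 5 and 10 on chromosome 18 and 10 and 4 on chromosome 13. The share of such domains in the covered length of the 8 chromosomes was 42.6% for mock and 59.99% for PA+OA. On chromosome 18 this share was 24.7% and 68.6%, on chromosome 15 49.6% and 82.7%, and on chromosome 22 27.9% and 91.4%. On chromosome 10 it was 12.9% and 14.7%, and on the other 15 chromosomes 32.7% and 33.8%. This length included PA+OA domains without protein-coding genes, of 17.96 Mb on chromosome 14, 17.16 Mb on chromosome 15 and 10.64 Mb on chromosome 22. The longest mock domains of these chromosomes were 17.96, 17.16 and 10.08 Mb. In the PA+OA list, long domains thus made up most of chromosomes 15, 18 and 22, and little more of chromosome 10 than in the mock list. This follows in part from the rule, since fewer domains over a similar length are longer.

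Of 587 mock boundaries on the 8 chromosomes, 242 were lost (41.2%, interval 37.3 to 45.3%), against 28.7% of all 2519 mock boundaries and 24.9% of the 1932 on the other 15 chromosomes. Since the rule asks for fewer domains, a higher loss is built in. Within the stretch that the PA+OA list covers, the share was 232 of 577 (40.2%). Chromosome 10 lost 38 of 166 there (22.9%, 17.2 to 29.9%), chromosome 5 45 of 145 (31.0%, 24.1 to 39.0%) and chromosome 14 20 of 59 (33.9%, 23.1 to 46.6%). The intervals of these 3 chromosomes held the 24.9% of the other 15. Chromosome 18 lost 40 of 75 (53.3%, 42.2 to 64.2%), chromosome 21 13 of 22 (59.1%, 38.7 to 76.7%) and chromosome 13 11 of 17 (64.7%, 41.3 to 82.7%). Chromosome 15 lost 42 of 63 (66.7%, 54.4 to 77.1%), and chromosome 22 lost 23 of 30 (76.7%, 59.1 to 88.2%). Chromosomes 5, 10 and 18, the members that are not acrocentric, together lost 32.0% of all their mock boundaries, the 1 beyond the PA+OA list included.

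On the acrocentric chromosomes, the boundaries that lay more than 500 kb before the first protein-coding gene, in or near the short arm and centromere, were retained in 12 of 13 cases, all 13 on these 5 chromosomes. Of these 12, 5 were the chromosome start, where both lists begin. On chromosome 22 they were 5 of the 7 retained boundaries. Its gene-bearing stretch inside the PA+OA list lost 22 of 24 boundaries (91.7%, 74.2 to 97.7%), and the 2 that were retained, at 17600000 inside ATP6V1E1 and at 43960000 inside SAMM50, were the edges of 1 PA+OA domain. The later one is also the end of the PA+OA list. On chromosome 13 the same stretch lost 11 of 16 and on chromosome 15 42 of 60 (70%, 57.5 to 80.1%).

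Retained boundaries stood mostly in the identical bin, 299 of 345 (86.7%), as on the other 15 chromosomes, where it was 1264 of 1450 (87.2%). On chromosome 13 it was 6 of 6 and on chromosome 21 9 of 9. Lost boundaries were farther from any PA+OA boundary, at a median of 860 kb against 360 kb for those lost on the other 15, which follows in part from the longer domains. On the 8 chromosomes 80 of 242 lay more than 2 Mb away, against 17 of 482 elsewhere. Chromosomes 15, 22, 18 and 13 held 22, 20, 13 and 10 of these 80, and chromosome 10 held none. Conversely, PA+OA boundaries without a mock boundary within 1 bin numbered 68 of 414 (16.4%, 13.2 to 20.3%). The share was 25% of all 2396 PA+OA boundaries and 26.8% of those on the other 15. A low share on the 8 chromosomes follows in part from the rule, as their high share lost does. The other 15 include chromosome 3, with more PA+OA than mock domains, where it was 84 of 223 (37.7%). Chromosome 18 had 3 of 38, chromosome 10 20 of 149, chromosome 5 21 of 121 and chromosome 13 none of 6.

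**Figure D3:**
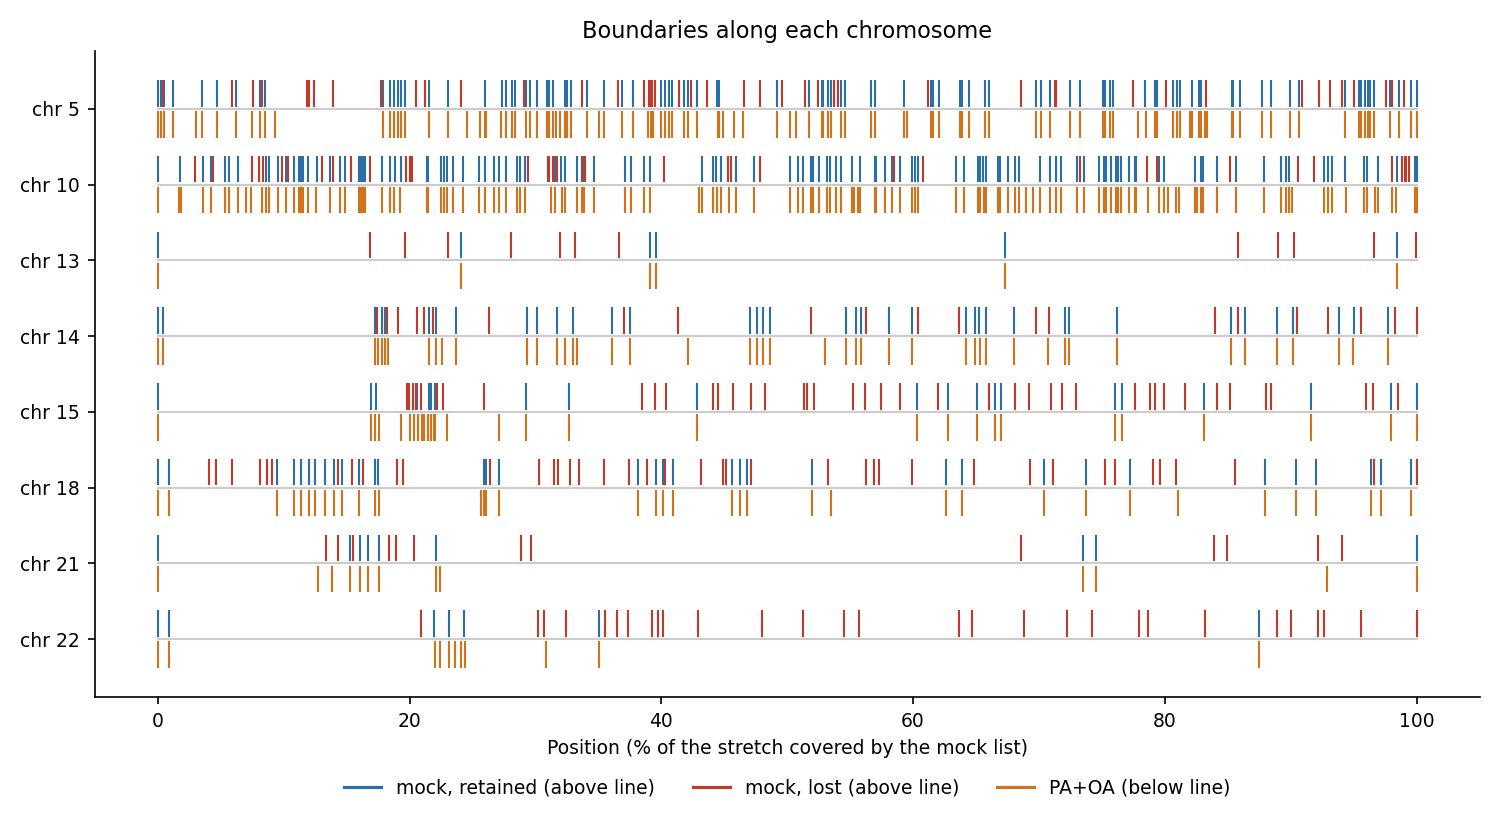
Each row is a chromosome, with position as a percentage of the stretch covered by the mock list. Ticks above the line are mock boundaries, retained in blue or lost in red, and ticks below are PA+OA boundaries in orange. Long uninterrupted series of red ticks stand over chromosomes 15, 18 and 22, while red ticks are scattered among blue ones on chromosomes 5 and 10.

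The length of series of neighbouring lost boundaries differed between chromosomes, and longer series follow in part from a higher share lost. On chromosome 5, 21 of 30 series consisted of 1 boundary, and on chromosome 10 18 of 25 did. It was 10 of 18 on chromosome 18, 4 of 12 on chromosome 15 and 1 of 4 on chromosome 22. On chromosome 15, 36 of 42 lost boundaries lay in series of 3 or more, on chromosome 18 25 of 41 and on chromosome 22 28 of 29. On chromosomes 5 and 10 it was 12 of 45 and 14 of 38. The longest series held 19 boundaries on chromosome 22, 12 on chromosome 15, 7 on chromosome 18, 5 on chromosome 5 and 4 on each of chromosomes 10, 13, 14 and 21. In the PA+OA list, 23 domains each held 3 or more lost mock boundaries, 113 of the 232 in the covered stretch. On chromosome 15, 5 such domains held 29 of the 42, and on chromosome 18 5 held 23 of 40.

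A single PA+OA domain of chromosome 22, from 17600001 to 43960000, covered 26.36 Mb and 358 protein-coding genes where the mock list had 20 domains with a median of 1200 kb and a longest of 3960 kb. The gene-richest of its 19 lost boundaries were at 41800000 next to CCDC134, with 28 protein-coding genes within 500 kb, at 39160000 next to CBX7, with 26, and at 37280000 next to CYTH4, with 25. CBX7 encodes a chromobox protein of Polycomb repressive complex 1. Another boundary of the series lay inside the septin gene SEPTIN5 at 19720000. The retained boundary with the most genes was the one inside ATP6V1E1, with 11.

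The longest PA+OA domain of chromosome 15, from 43360001 to 61120000, covered 17.76 Mb and 124 genes in place of 13 mock domains with a median of 1280 kb. Its gene-richest lost boundaries were at 45080000 near DUOX2, an NADPH oxidase gene, with 18 genes within 500 kb, at 44640000 inside SPG11, with 12, and at 51960000 inside LEO1, a subunit gene of the PAF1 elongation complex, with 11. Further boundaries of this series lay inside SEMA6D at 47720000, MYO5C at 52240000, NEDD4, a ubiquitin ligase gene, at 55920000, and BNIP2 at 59680000. Its outer edges were retained in the identical bin, at 43360000 inside ZSCAN29, where 24 genes lay within 500 kb, and at 61120000 inside RORA, with 1. So a gene-dense and a gene-poor edge were both kept around the series.

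The longest PA+OA domain of chromosome 18, from 21600001 to 30400000, covered 8.8 Mb but held only 26 genes, in place of 8 mock domains. Its gene-richest lost boundaries were at 24160000 inside CABYR, with 6 genes within 500 kb, at 26120000 near PSMA8 and at 26680000 near KCTD1, with 4 each. The liver and gut transcription factor gene GATA6, the cholesterol export gene NPC1 and the oxysterol-binding protein gene OSBPL1A lay in it. A further PA+OA domain on this chromosome, from 680001 to 7560000, took in 6 lost boundaries, and 1 from 42600001 to 49880000 took in 4. The retained boundary with the most genes, 11, was at 12720000 inside PSMG2.

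On chromosome 13 only 5 PA+OA domains were listed, and 3 of them held all 11 lost boundaries in the covered stretch. That from 76480001 to 111880000, 35.4 Mb with 85 genes, lacked mock boundaries at 97480000 next to RAP2A, at 101120000 inside the sodium leak channel gene NALCN and at 102560000 near TPP2. The mock domain from 45000001 to 76480000, 31.48 Mb, had equal edges in both lists. The chromosome 21 domain from 10360001 to 33920000, listed for PA+OA, covered 23.56 Mb, of which 1 mock domain made up 17.96 Mb, and it held 3 lost boundaries. For 2 of them, at 13320000 and 13680000, the nearest gene was POTED. Its far edge, beside the ATP synthase subunit gene ATP5PO, was retained and had 15 genes within 500 kb.

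On the chromosomes with scattered losses, the domain with the most lost boundaries was smaller or poor in genes. On chromosome 5 it spanned 15.64 Mb from 16800001 to 32440000 with 30 genes, and of its 5 lost boundaries the gene-richest, at 32120000 near GOLPH3, had 6 genes within 500 kb. Another, at 22440000 inside the cadherin gene CDH12, had 1. On chromosome 10 it spanned 2.04 Mb from 131240001 to 133280000 near the chromosome end, with lost boundaries inside STK32C, INPP5A and JAKMIP3. On chromosome 14 it spanned 3.44 Mb from 19520001 to 22960000 with 73 genes. Its lost boundary at 20360000, near the DNA repair gene PARP2, had 32 genes within 500 kb, and that at 22560000 near DAD1 had 17. The retained boundary at 22920000 by the arginine methyltransferase gene PRMT5, at the far edge of that domain, had 33. On chromosome 5 the gene-richest retained boundary, with 25 genes, was at 177080000 near FGFR4, and on chromosome 10, with 21, at 73520000 inside USP54.

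Gene content did not separate lost from retained boundaries when the 8 chromosomes were pooled. The median number of protein-coding genes within 500 kb was 5 (interval 4 to 6) at 242 lost boundaries and 5 (5 to 6) at 345 retained ones, with means of 6.70 and 6.27. On the other 15 chromosomes the medians were 4 (3 to 5) at 482 lost and 7 (6 to 7) at 1450 retained boundaries. The joint value mixed chromosomes with opposite orders. Chromosome 10 had medians of 3 (2 to 7) at lost and 6 (5 to 8) at retained boundaries, chromosome 5 had 4 (2 to 7) and 5 (4 to 6), chromosome 18 had 3 (2 to 4) and 4 (2 to 6), and chromosome 21 had 4 (0 to 9) and 5 (0 to 14). Chromosome 22 had 11 (3 to 20) and 0 (0 to 11), chromosome 14 had 8.5 (3 to 13) and 6 (3 to 9), chromosome 15 had 7 (4 to 9) and 6 (4 to 9), and chromosome 13 had 3.5 (3 to 7) and 2.5 (0 to 8). Lost boundaries were thus the gene-poorer class on 4 chromosomes and the gene-richer one on 4, with overlapping intervals on all 8. On chromosomes 5, 10 and 18 together, the medians were 3 (2 to 5) and 5 (4 to 6).

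**Figure D4:**
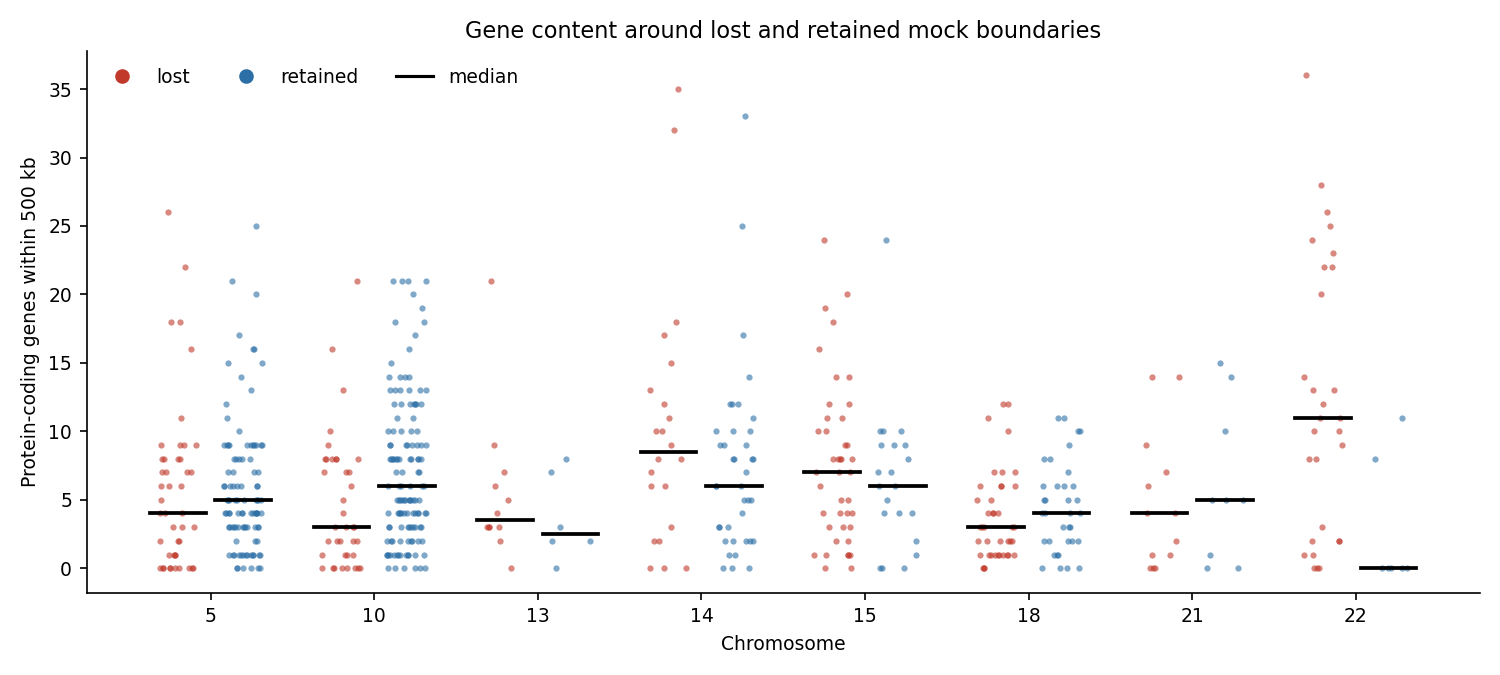
Each point is a mock boundary at its count of protein-coding genes closer than 500 kb, by chromosome, lost in red and retained in blue, with the median as a black line. The medians of lost boundaries lie below those of retained ones on chromosomes 5, 10, 18 and 21 and above them on chromosomes 13, 14, 15 and 22, and the points overlap throughout.

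The order on chromosomes 13 and 15 rested on boundaries outside the stretch compared next, and on chromosome 22 few retained ones lay inside it. Within the gene-bearing stretch that the PA+OA list covers, the medians at lost and retained boundaries were 3 and 3 on chromosome 13, 7 and 7 on chromosome 15, and 12 at 22 lost and 9.5 at 2 retained boundaries on chromosome 22. On chromosome 14 they were 8.5 and 7. Over the 8 chromosomes they were then 4 and 5. The share of boundaries with no protein-coding gene within 500 kb was 33 of 242 (13.6%) at lost and 30 of 345 (8.70%) at retained boundaries. On chromosome 5 these were 10 of 45 and 6 of 100, on chromosome 10 8 of 38 and 6 of 128, on chromosome 14 3 of 22 and 3 of 39, and on chromosome 21 3 of 13 and 2 of 9. The order was the other way on chromosome 22, with 3 of 29 lost and 5 of 7 retained boundaries, on chromosome 15, with 2 of 42 and 3 of 21, on chromosome 18, with 3 of 41 and 4 of 35, and on chromosome 13, with 1 of 12 and 1 of 6.

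In the bins directly beside a boundary the pattern was similar. The middle of a protein-coding gene lay within 40 kb of 106 of 242 lost boundaries (43.8%, 37.7 to 50.1%) and of 163 of 345 retained ones (47.2%, 42.0 to 52.5%), against 50.2% of all mock boundaries. On the other 15 chromosomes it was 39.6% (35.4 to 44.1%) and 55.5% (53.0 to 58.1%). Chromosome 10 gave 31.6% (19.1 to 47.5%) and 50% (41.5 to 58.5%), chromosome 18 gave 29.3% (17.6 to 44.5%) and 42.9% (28.0 to 59.1%), and chromosome 15 gave 57.1% (42.2 to 70.9%) and 42.9% (24.5 to 63.5%). Over chromosomes 5, 10 and 18 the shares were 34.7% at lost and 47.9% at retained boundaries. Pooled over the 8 chromosomes, lost boundaries had somewhat longer mock domains around them, with a median of 560 kb for the shorter and 1560 kb for the longer neighbour, against 480 and 1200 kb at retained ones. This value also mixed chromosomes. Both medians were larger at lost boundaries on chromosomes 5 and 14 only. On chromosome 10 both were smaller, at 360 and 820 kb against 400 and 940 kb. Lost boundaries had the smaller median for the longer neighbour on chromosomes 13 and 15, and for the shorter neighbour on chromosomes 18 and 21. On chromosome 22 the shorter neighbours were equal, at 520 kb.

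For the genes themselves, the domain grew most on chromosomes 22, 15, 13 and 18. Of 3944 protein-coding genes of the 8 chromosomes that lay in a domain of both lists, 1615 (40.9%) were in a PA+OA domain at least 2 times as long as their mock domain, against 16.3% of all genes in both lists, and 84 (2.13%) in one at most 0.5 times as long, against 11.1%. The first share was 360 of 369 genes on chromosome 22, 438 of 595 on chromosome 15, 181 of 306 on chromosome 13 and 149 of 258 on chromosome 18. It was 93 of 727 on chromosome 10. The median domain around a gene went from 1720 to 3280 kb over the 8 chromosomes. Mock and PA+OA medians were 1880 and 26360 kb on chromosome 22, 1760 and 9160 kb on chromosome 15 and 920 and 1000 kb on chromosome 10. Domains with both edges matched and no PA+OA boundary inside, called kept here, held 1199 of 4113 genes (29.2%) against 40.5% of all 19821. They held 487 of 733 on chromosome 10 and 335 of 894 on chromosome 5, but 71 of 602 on chromosome 15 and 0 of 439 on chromosome 22. All these shares follow in part from the choice of chromosomes.

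Among 9 lists of genes with known roles in the liver or in all cells, 185 genes lay on these chromosomes, 51 of them (27.6%) in kept domains, and 77 of the 175 in both lists (44.0%) were in a PA+OA domain at least 2 times as long. These shares are near the 29.2% and 40.9% of all protein-coding genes of the 8 chromosomes, and no list was tested against them. In every list, genes that share a domain count separately though they are not independent. For fatty acid activation, transport and oxidation, 7 of 26 genes were kept (26.9%) and 9 of 24 at least doubled in domain length (37.5%), near the 29.2% and 40.9% of all genes of the 8 chromosomes. The middle of HSD17B4, which encodes a peroxisomal beta-oxidation enzyme, stayed in 560 kb on chromosome 5, 22.6 kb from a retained boundary. That boundary lay inside the gene, and the PA+OA domain past it was 6800 kb long and held 1 lost boundary. Genes are placed by their middle, and retained domain edges also lay inside LIPA, AGXT2, HK1, NR3C1 and RPL26L1, named below. ECHS1, the gene of short-chain enoyl-CoA hydratase, stayed in 120 kb on chromosome 10, and AMACR, a racemase gene for branched fatty acids, in 520 kb on chromosome 5. By contrast the fatty acid transport protein gene SLC27A6 lay 39.6 kb from a lost boundary and went from 200 to 2880 kb on the same chromosome. PHYH, the gene of phytanoyl-CoA hydroxylase, went from 440 to 880 kb, and SLC27A2, another transport protein gene, from 3120 to 17760 kb on chromosome 15.

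Of the genes of lipid synthesis and droplets, 6 of 19 were kept (31.6%) and 6 of 17 at least doubled (35.3%), again near the 29.2% and 40.9% of all genes there. The desaturase gene SCD and GPAM, which encodes the acyltransferase of the first step of triglyceride synthesis, kept domains of 240 and 1520 kb on chromosome 10. PLIN1, a lipid droplet coat protein gene, and ABHD2, a lipase gene, went from 3200 and 2880 kb to a shared domain of 8600 kb on chromosome 15. CIDEA, which encodes a droplet fusion protein, went from 680 to 1080 kb on chromosome 18. PNPLA3, a droplet-associated lipase gene, went from 2160 to 26360 kb on chromosome 22. It lay 24.3 kb before the retained boundary at 43960000, which is also the end of the PA+OA list. There SAMM50, a mitochondrial outer membrane gene, spanned that boundary, and the middle of its record lay just beyond the last PA+OA domain.

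Of the genes of sterol, lipoprotein and bile salt handling, 3 of 18 were kept (16.7%) and 11 of 17 at least doubled (64.7%), beside 29.2% and 40.9% of all genes of the 8 chromosomes. These members are not independent. SREBF2, APOL1, APOL3 and APOL6 lay in the same PA+OA domain of chromosome 22, and the APOL genes in a single mock domain. NPC1 and OSBPL1A shared a PA+OA domain of chromosome 18. The kept ones were FABP6, the ileal bile acid-binding protein gene, LIPA, the lysosomal acid lipase gene, and ABCC2, a canalicular export pump gene, and LIPA and ABCC2 lay in 840 and 560 kb on chromosome 10. SREBF2, the regulator gene of cholesterol synthesis, lay 70.2 kb from a lost boundary and went from 2160 to 26360 kb. APOL1, an apolipoprotein gene, lay 19.7 kb from one and went from 1720 to 26360 kb. LIPC, the hepatic lipase gene, went from 1480 to 17760 kb on chromosome 15, and NPC1 from 2560 to 8800 kb on chromosome 18. LSS, the lanosterol synthase gene, lay past the end of both lists on chromosome 21.

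Of the genes of hepatocyte secreted proteins, 11 of 19 were kept (57.9%) and 4 of 16 at least doubled (25%), beside 29.2% and 40.9% of all genes there. Their median domain was 2640 kb for mock and 2680 kb for PA+OA. Members of 1 cluster share a domain and are not independent: 5 serpin genes with SERPINA3 and SERPINA5 lay in 1 domain from 92040001 to 94680000 on chromosome 14, and the complement genes C6, C7 and C9 in another from 38960001 to 41680000 on chromosome 5. F12, the gene of coagulation factor XII, lay 34.1 kb from a lost boundary on chromosome 5 and went from 360 to 1360 kb. SERPIND1, the heparin cofactor gene, went from 1400 to 26360 kb on chromosome 22.

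Cytochrome P450 and redox genes divided by chromosome, with 6 of 20 kept (30%) and 10 of 19 at least doubled (52.6%), beside 29.2% and 40.9% of all genes of the 8 chromosomes. CYP2C8, CYP2C18 and CYP2C19, genes of drug-metabolising enzymes, kept their shared 560 kb from 94600001 to 95160000 on chromosome 10. The xenobiotic-induced pair CYP1A1 and CYP1A2 and the steroid enzyme gene CYP11A1 went from 3080 to 9160 kb on chromosome 15. TXNRD2, a mitochondrial thioredoxin reductase gene, lay 51.3 kb from a lost boundary and went from 240 to 26360 kb on chromosome 22, while TXN2, the gene of its substrate, came from 1000 kb. CYP17A1, a steroid hydroxylase gene, kept its chromosome 10 domain within 1 bin, at 840 and 800 kb. CYP26A1 and CYP26C1, retinoic acid-degrading enzymes on chromosome 10, went the other way, from 2200 to 760 kb.

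Of the transcription factor genes, 3 of 26 were kept (11.5%) and 12 of 26 at least doubled (46.2%), beside 29.2% and 40.9% of all genes of the 8 chromosomes. Those kept were the glucocorticoid receptor gene NR3C1 and the interferon regulator gene IRF1, each in 1400 kb on chromosome 5, and KLF5 in 31480 kb on chromosome 13. ATF4 lay 1.62 kb from a lost boundary, ONECUT1, a hepatocyte factor gene, 12.7 kb and the nuclear receptor gene NR2E3 25.6 kb. Their domains went from 2280 to 26360 kb, from 3160 to 17760 kb and from 1760 to 9160 kb. The gene of the stress factor XBP1 went from 3960 kb to the same 26360 kb as ATF4. The TGF-beta signalling genes SMAD2 and SMAD7 shared a mock domain of 2160 kb and SMAD4 lay in 720 kb, and these chromosome 18 genes went to 7280 and 5200 kb. FOXO1, a target of insulin signalling, went from 4040 to 17120 kb on chromosome 13. HHEX, a factor gene of liver development on chromosome 10, shared the 2200 kb mock domain of CYP26A1 and lay in the PA+OA domain before that of CYP26A1, also of 760 kb.

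**Figure D5:**
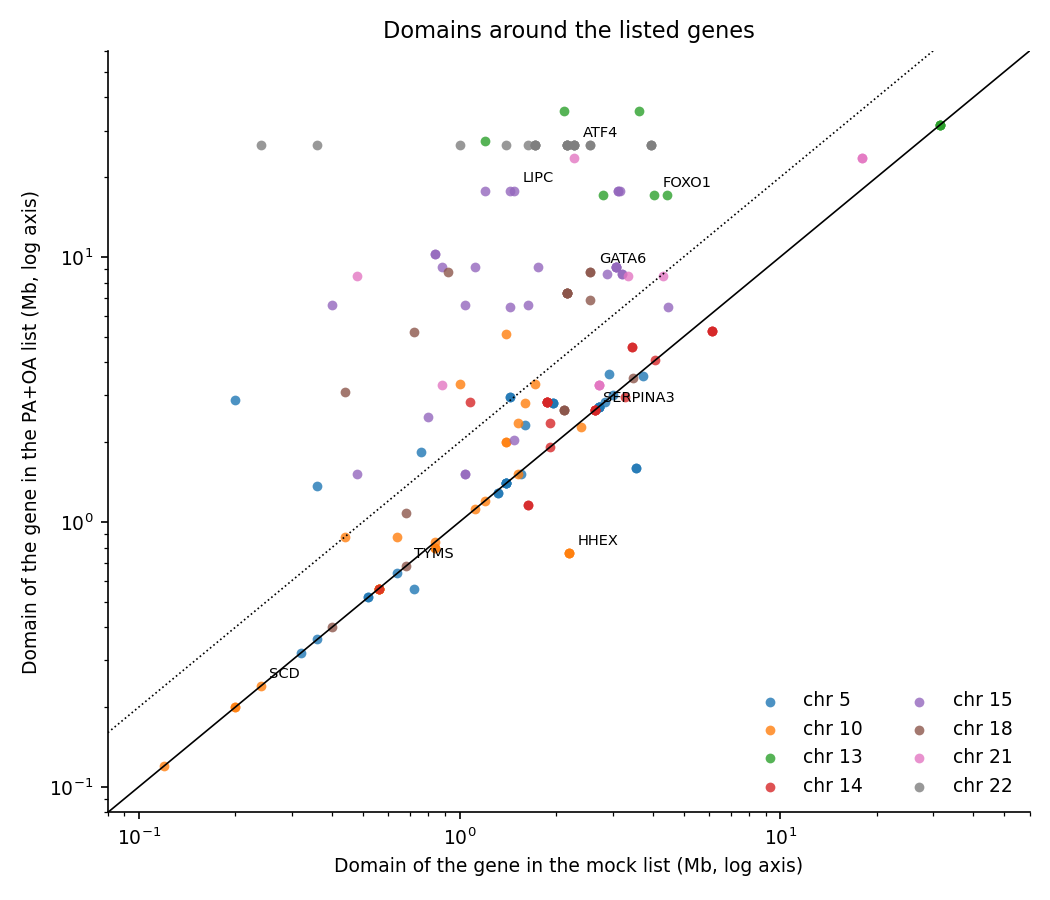
Each point is 1 of the 175 listed genes that lie in a domain of both lists, at the length of its mock domain (x) and its PA+OA domain (y), in Mb on log axes, coloured by chromosome. The solid line marks equal length and the dotted line 2 times the length. Genes of chromosome 22 stand at 26.36 Mb whatever their mock domain, and many of chromosomes 5 and 10 lie on the line of equal length.

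Growth and signalling genes had 8 of 20 kept (40%) and 9 of 19 at least doubled (47.4%), beside 29.2% and 40.9% of all genes there. TYMS, the thymidylate synthase gene, stayed in 680 kb at the start of chromosome 18, and PIK3R1, a phosphoinositide 3-kinase subunit gene, in 1560 and 1520 kb on chromosome 5. IRS2, the gene of an insulin receptor substrate, lay 9.64 kb from a lost boundary and went from 2120 to 35400 kb on chromosome 13. AKT1, the gene of a kinase downstream of it, lay 62.5 kb from a lost boundary near the end of chromosome 14, beyond the PA+OA list. BUB1B, a spindle checkpoint gene, went from 840 to 10280 kb on chromosome 15.

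Of the genes of amino acid, sugar and iron metabolism, 5 of 22 were kept (22.7%) and 10 of 22 at least doubled (45.5%), near the 29.2% and 40.9% of all genes there. AGXT2, an aminotransferase gene, and the adjacent hexokinase genes HK1 and HKDC1 kept domains of 520 and 200 kb. DMGDH, a choline catabolism gene, lay 33.6 kb from a lost boundary, and it and its neighbour BHMT went from 1440 to 2960 kb on chromosome 5. MTHFD1, a folate enzyme gene, went from 3440 to 4560 kb on chromosome 14, and FTCD, a histidine breakdown gene, from 2720 to 3280 kb on chromosome 21. FAH, which encodes the last enzyme of tyrosine breakdown, went from 400 to 6560 kb on chromosome 15. Cytosolic ribosomal protein genes, which every cell uses, had 2 of 15 kept (13.3%) and 6 of 15 at least doubled (40%), beside the same 29.2% and 40.9%. RPS24 lay 5.33 kb from a lost boundary and went from 640 to 880 kb on chromosome 10, RPL3 went from 360 to 26360 kb on chromosome 22, and RPL26L1 stayed in 640 kb on chromosome 5. RPL21 went from 1200 to 27360 kb on chromosome 13. That PA+OA domain runs from the chromosome start, while the first protein-coding gene starts at 19173772. It thus takes in a gene-free stretch that the mock list gave as a separate domain of 19160 kb. Every listed chromosome 22 gene with a domain in both lists, liver or ribosomal, lay in the domain of 26360 kb.

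Few genes lay right at a lost boundary. Within 50 kb of one were the middles of 198 of 4113 genes on the 8 chromosomes (4.81%), against 3.03% of all genes, and 11 of the 185 listed genes. The share was highest on chromosomes 22 (8.43%) and 15 (7.14%), followed by chromosomes 18 (5.97%) and 14 (4.31%). This count rises with the number of lost boundaries, and so with the rule.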

How the data were processed

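The authors deposited a list of domain starts and ends per library, as positions in base pairs. The build was hg38 and the tools named are FastQC and HiC-Pro, per the submitters' processing notes. Domain caller, matrix normalization and depth, each able to change the number of domains, are not given in the sources used. All positions were multiples of 40 kb, taken as the bin. Edges within 1 bin of each other were merged and placed at the first. Protein-coding genes came from a RefSeq table of GRCh38, the same build, and were placed by the middle of their record. Of 19974, the 153 on unplaced or alternate scaffolds were left out, because their positions are not chromosome positions, and 19821 were used. Promoter sequences were found for 3529 of the 4113 genes of the 8 chromosomes, taking per gene the one nearest the start of its record. Lists and chromosomes were chosen with earlier results of these data known. Named genes were up to 3 members of each list nearest to a lost and to a retained boundary, named boundaries those with the most genes in the domain with the most lost boundaries of each chromosome. Other members are examples chosen after their values were seen, and some genes the rule covers are not reported here. Shares have Wilson 95% intervals, and medians have intervals from binomial ranks. No test was made, with 1 library per group. Python 3.11.15 with pandas 2.3.3 was used. The code that matches boundaries was run on simulated data with known losses. Kept edges moved there by at most 1 bin, the tolerance itself, so this checks the code and not the choice of tolerance.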

Additional observations from a re-analysis of the deposited data

How the results depend on the processing

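Each result was recomputed with other settings, 110 values in all: 90 stayed within the interval of the main value (or within 1.5 times it where it has none) and 20 left it. None changed sign, but medians and shares cannot, and the domain number was summed over chromosomes chosen for a deficit. The order of lost against retained boundaries was not scored. Their gene medians were 4 and 5 without chromosome 14, and 6 and 5 without chromosome 18. The 41.2% of mock boundaries lost became 49.1% with a tolerance of 0 bins, 48.5% without chromosome 10 and 32.0% without the 5 acrocentric chromosomes. This last choice, the restriction to the gene-bearing stretch, the placement of genes by transcription start and the inclusion of scaffold genes were added after the data were seen. Without the acrocentric chromosomes, the difference in domain number was -86 in place of -191, the median gene number at lost boundaries 3 in place of 5, and the share of lost boundaries with a gene within 40 kb 34.7% in place of 43.8%. The PA+OA median size was 920 kb without chromosome 10. Changing the window moves gene numbers by its construction: the medians at lost and retained boundaries were 0 and 1 within 50 kb, 2 and 3 within 250 kb, 11 and 11 within 1000 kb, and 20 and 19 with all genes of the table. Within 80 kb, 58.7% of lost and 60.3% of retained boundaries had a gene, and within 200 kb 73.6% and 80.9%. With genes placed by their transcription start, retained boundaries had a median of 4, from fewer genes. The cause of the other shifts was not tested. The lists hold no contact counts, so how depth limits a boundary is unknown. No paired analysis was possible because each group has 1 library.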
